A study of Mus musculus with 40 samples.

Results

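The genes described here are 47 mouse genes of the cell division cycle, among 51789 genes in the count table. They were taken by name from a fixed list, after the Ensembl identifiers of the table had been matched to mouse gene symbols. The list was drawn up with earlier results of these data known, although no threshold on a measured value defines it. By role they comprise 8 G1 cyclins and kinases, 2 inhibitors of cyclin-dependent kinases (CDKs), 4 transcription factors of the cell cycle, 11 genes of replication licensing and DNA synthesis, 9 mitotic cyclins, kinases and Cdc25 phosphatases, 4 genes of the spindle checkpoint and the anaphase-promoting complex, 7 genes of the kinetochore, spindle and cytokinesis, and 2 proliferation markers. All 47 were expressed highly enough to be tested in every comparison below.

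The study asked how the circadian transcription factor Bmal1 (gene symbol Arntl) affects mouse melanoma cells, and measured RNA of cultured cells by QuantSeq, which sequences the 3′ ends of messenger RNA. The 40 libraries were 2 for each of 20 groups. B16-F10 is a pigmented mouse melanoma line, present as 1 control clone (Ctrl) and 1 Bmal1 knockout clone (Bmal1 KO). YUMM2.1 comes from tumors of mice whose engineered alleles included mutant Braf, a single copy of Cdkn2a and a stabilized β-catenin, and YUMM1.7 from tumors whose alleles included mutant Braf and the loss of Cdkn2a. YUMM2.1KO cells are 1 YUMM2.1 clone, aC3, in which CRISPR had removed Bmal1. YUMM2.1, YUMM2.1KO and YUMM1.7 cells each carried an empty lentiviral vector (EV), wild-type Bmal1 (WT) or dHLH-Bmal1 (dHLH), which lacks the DNA-binding helix-loop-helix domain. The YUMM2.1 and YUMM2.1KO cells with these vectors were sorted for GFP, and how the YUMM1.7 cells were made is not given in the sources used here. The study describes YUMM2.1 and YUMM2.1KO lines of these names as made from cells with a Bmal1 promoter luciferase reporter, selected with blasticidin. YUMM2.1 cells with each of these vectors also carried a scrambled hairpin (shNC) or 1 of 2 hairpins against non-muscle myosin Myh9 (shMyh9#2, shMyh9#4), and were selected with puromycin. The YUMM2.1KO groups therefore share the lack of endogenous Bmal1 and a single-cell origin, and the hairpin groups share puromycin selection. The study calls the 2 libraries of a group duplicates or biological replicates, and no source used here says which cultures they came from, so p-values measure only the spread between these libraries.

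Cells commit to division in G1, when D-type cyclins with Cdk4 or Cdk6 and E-type cyclins with Cdk2 release E2F factors from the retinoblastoma proteins, a step that p21 (Cdkn1a) and p27 (Cdkn1b) restrain. E2F factors then drive the genes that license origins (Mcm2 to Mcm7, Cdc6, Cdt1) and make DNA (Pcna, Rrm2, Tyms). Mybl2 and Foxm1 turn on the later genes, whose products, among them cyclin A and B, Cdk1, the Aurora kinases and the kinetochore proteins, carry the cell through mitosis. In melanoma the G1 step is often altered, through cyclin D1, Cdk4 or the inhibitor locus Cdkn2a.

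The promoters of these genes carry short words known from this regulation, and 5 are printed here, Cdk4 for its copies of the word that Bmal1 binds and the other 4 because their genes recur in the results: Cdk4 (G1 kinase, chr10:127063285-127063584, + strand), Cdk1 (mitotic kinase, chr10:69352863-69353162, - strand), Mcm6 (replication helicase, chr1:128359656-128359955, - strand), Rrm2 (ribonucleotide reductase, chr12:24708004-24708303, + strand) and Cdc25a (phosphatase that activates CDKs, chr9:109875329-109875628, + strand). They are RefSeq sequences of build GRCm38.p6, written 5′ to 3′ on the strand of the gene, from 250 bases before to 50 after the transcript start. Capitals mark 5 words, named after the sequences, on either strand.
Cdk4: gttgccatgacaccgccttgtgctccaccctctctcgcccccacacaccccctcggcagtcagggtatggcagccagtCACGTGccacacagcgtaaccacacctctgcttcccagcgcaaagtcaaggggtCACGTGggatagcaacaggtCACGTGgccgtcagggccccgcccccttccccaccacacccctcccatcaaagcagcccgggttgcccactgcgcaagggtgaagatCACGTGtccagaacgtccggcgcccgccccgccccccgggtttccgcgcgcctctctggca
Cdk1: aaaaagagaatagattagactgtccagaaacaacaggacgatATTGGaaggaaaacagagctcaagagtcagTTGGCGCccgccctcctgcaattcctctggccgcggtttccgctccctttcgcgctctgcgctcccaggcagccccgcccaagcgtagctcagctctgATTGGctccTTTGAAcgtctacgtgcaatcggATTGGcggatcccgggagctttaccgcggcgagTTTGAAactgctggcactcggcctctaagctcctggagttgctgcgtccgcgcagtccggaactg
Mcm6: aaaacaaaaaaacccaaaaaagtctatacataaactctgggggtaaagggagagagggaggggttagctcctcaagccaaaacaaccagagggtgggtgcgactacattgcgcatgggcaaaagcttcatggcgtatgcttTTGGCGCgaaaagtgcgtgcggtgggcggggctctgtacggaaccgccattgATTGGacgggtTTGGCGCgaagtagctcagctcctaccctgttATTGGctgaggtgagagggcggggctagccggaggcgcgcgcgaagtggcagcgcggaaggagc
Rrm2: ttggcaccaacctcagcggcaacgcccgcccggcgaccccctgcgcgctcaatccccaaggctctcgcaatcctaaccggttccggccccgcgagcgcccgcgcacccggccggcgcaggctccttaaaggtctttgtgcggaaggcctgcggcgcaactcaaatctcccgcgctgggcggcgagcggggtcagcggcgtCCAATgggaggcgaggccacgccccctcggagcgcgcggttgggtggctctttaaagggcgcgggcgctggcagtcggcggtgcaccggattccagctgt
Cdc25a: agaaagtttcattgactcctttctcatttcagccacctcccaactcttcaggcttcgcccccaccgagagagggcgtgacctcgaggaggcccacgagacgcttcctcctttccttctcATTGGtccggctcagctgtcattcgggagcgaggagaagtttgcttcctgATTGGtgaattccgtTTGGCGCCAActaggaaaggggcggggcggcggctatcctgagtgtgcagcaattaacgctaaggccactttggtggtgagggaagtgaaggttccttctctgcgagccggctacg
CACGTG is the E-box that Bmal1 binds together with Clock, TTTGAA is the cell cycle homology region (CHR), CCAAT is the NF-Y word, and TTCCCGC and TTGGCGC are forms of the E2F word. Both strands were searched, and TTGGCGC can share letters with ATTGG, the CCAAT word of the other strand, and with its own reverse complement, as it does in Cdc25a. Of the 47 genes 38 had a promoter in the table, and Ccnd1, Ccnd2, Ccna2, Ccne2, Aurkb, Foxm1, Mcm4, Tpx2 and Cdc25c did not. The E-box word was present in 4 of the 38 (10.5%), namely Cdk4, Cdk6, Tyms and Anln, against 7.24% of all 27025 promoters in the table. An E2F word was present in 12 (31.6%, against 6.93% of all promoters), CCAAT in 26 (68.4% against 37.9%) and the CHR in 14 (36.8% against 18.1%). CHR and CCAAT occurred together in 13 (34.2% against 7.12%), which included Ccnb2, Plk1, Cdc20, Ube2c, Cdk1, Mki67 and Top2a. The Cdk4 promoter held 4 copies of CACGTG, at positions -172, -118, -98 and -11 from the start. These matches are descriptions of the letters and were not tested; a match is not evidence of binding.

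Library totals ran from 3643332 to 22970049 counts with a median of 10021164.5. Levels are given as CPM, the count of a gene relative to the total of its library, after scaling all 40 libraries together, and are compared between samples of 1 gene, not between genes. The summed level of 9 melanocyte markers was 19764.6 to 26052 CPM in B16-F10, most of it Dct (12350.9 to 17377 CPM). Not all 9 marked this line. Ednrb was at 0 in every library and Kit at or below 0.528 CPM. Sox10, at 367 to 633 CPM in B16-F10, overlapped YUMM2.1 (66.3 to 541 CPM). In the other lines Dct, Tyr, Tyrp1, Pmel and Mlana were at or near 0, and the sum was 81.4 to 558 CPM in YUMM2.1, 453 to 626 CPM in YUMM2.1KO and 10.7 to 14.8 CPM in YUMM1.7. Summed leukocyte markers stayed at or below 0.288 CPM and keratinocyte markers at or below 0.486 CPM in every library. The endothelial markers Pecam1 and Cdh5 were not near 0, and summed to 3.75 to 4.96 CPM in B16-F10, 8.52 to 11.7 CPM in YUMM2.1, 6.71 to 12.02 CPM in YUMM2.1KO, 12.1 to 22.4 CPM in YUMM1.7 and 7.96 to 26.4 CPM in the hairpin libraries. Arntl reads did not separate the B16-F10 Ctrl libraries (15.2 and 10.7 CPM) from those labelled Bmal1 KO (13.3 and 11.5 CPM), and were present in the 2 YUMM2.1KO-EV libraries (33.1 and 30.5 CPM). A 3′ tag does not read an edited coding exon, so these values do not check the deletion. The B16-F10 Bmal1 KO libraries differed most within a group (chi-square per degree of freedom 96.5, against 2.68 to 22.2 in the other groups), and the first of them correlated better with a Ctrl library (r = 0.977) than with its partner (r = 0.968). All 4 YUMM2.1-EV and YUMM2.1-WT libraries correlated best with the library of the other group that carries the same replicate number (r = 0.985 for the first and 0.980 for the second, against 0.971 between the EV and 0.978 between the WT libraries). Whether same-numbered libraries share their handling or the labels of the second EV and the first WT library are exchanged cannot be told apart, so counts that move by over 1.5 times with those labels exchanged are given too.

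Of the 47 genes, 45 passed the test in at least 1 of the 20 comparisons of 2 groups, and Tyms and Cdc25c in none. Ccnd1 was called in 8 comparisons, always lower, and Rrm2 in 7. The proliferation marker Mki67 was called in 1. A gene was called when its Benjamini-Hochberg adjusted p from edgeR's quasi-likelihood test, taken over all genes tested, was under 0.05. Fold changes are log2 values from that fit with their standard error (SE), and each arm had 2 libraries. Counts from any other fit, with another method, exchanged labels or 1 library left out, are given without the share of all genes. They show how far a count moves, and not whether the 47 stand out. The strand of counting is not stated, and Ccnd1, Ccnd2, Ccnd3, Cdk4, Cdk6, Cdk2, Cdkn1a, Ube2c and Mki67 overlap another gene on the opposite strand and Cdc25a a microRNA gene on its own, so their counts may hold reads of the neighbor.

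**Figure D1:**
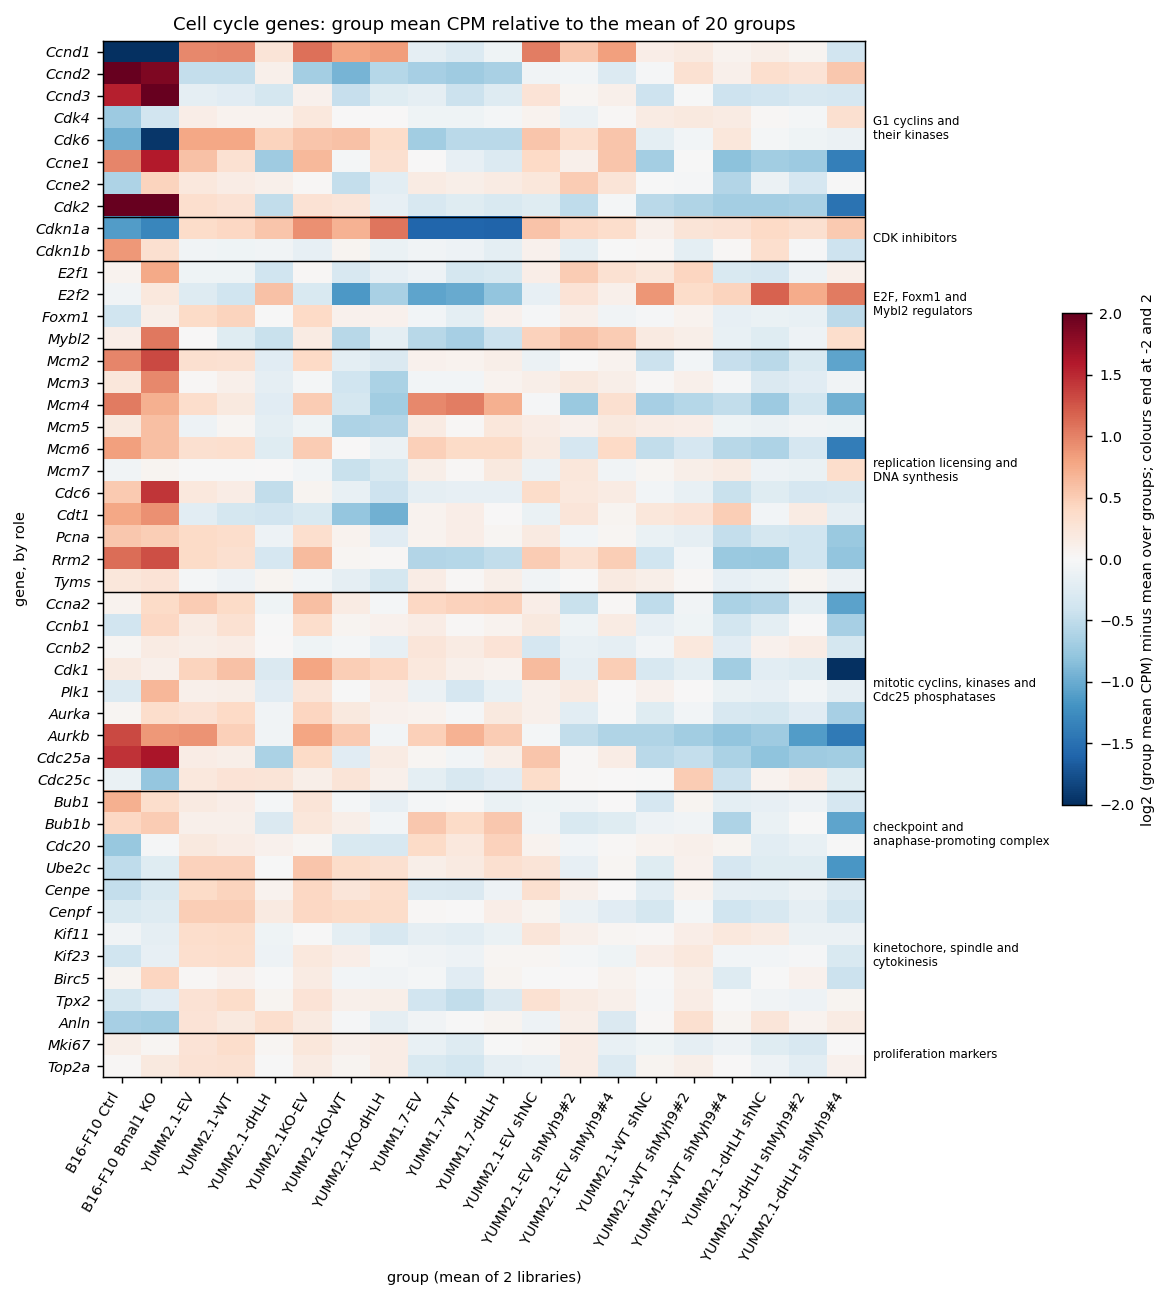
Heatmap of the group mean CPM of the 47 genes (one row each, ordered by role) in 20 groups (columns), as log2 minus the mean of the gene over the 20 groups, with colors ending at -2 and 2. Strong colors between cell lines are seen in the D cyclins, Cdk6, Cdk2 and Cdkn1a. Cdk1 is strongly low in YUMM2.1-dHLH shMyh9#4 (mean 49.3 CPM), while Mki67 and Top2a stay pale across all groups.

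The cell lines differed in genes of the G1 step and of mitosis, as they did in many other genes. Against YUMM2.1-EV, 63.8% of the listed cell cycle genes were called in B16-F10 Ctrl, beside 54.3% of all genes tested. In YUMM1.7-EV the shares were 42.6% and 37.1%, so the share called does not by itself single these genes out. B16-F10 Ctrl cells had little cyclin D1 and much cyclin D2 and D3 relative to YUMM2.1-EV, and YUMM1.7-EV had less cyclin D1, Cdk6 and p21 than YUMM2.1-EV. These are bulk cultures, in which fewer dividing cells and less RNA of a gene per cell cannot be told apart. Lines differ in origin, clone history and handling at once, so these sources of difference cannot be told apart.

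Ccnd1 (ENSMUSG00000070348, chr7:144929931-144939925 of GRCm38, - strand), which encodes cyclin D1, measured 242 and 241 CPM in B16-F10 Ctrl, against 5299.9 and 4424 CPM in the YUMM2.1-EV libraries and 2254 and 2189 CPM in those of YUMM1.7-EV. The 3 lines did not overlap. The log2 fold change against YUMM2.1-EV was -4.36 (SE 0.12, edgeR adjusted p = 2.23e-09) in B16-F10 and -1.14 (SE 0.10, adjusted p = 1.78e-05) in YUMM1.7-EV. Ccnd2 ran the other way, with 3408 and 3332 CPM in B16-F10 Ctrl, against 528 and 664 CPM in YUMM2.1-EV, with 535 and 513 CPM in YUMM1.7-EV. It was higher in B16-F10 by 2.47 on the log2 scale (SE 0.12, edgeR adjusted p = 7.57e-08), and YUMM1.7-EV lay at -0.19 (adjusted p = 0.203). Ccnd3 measured 289 and 305 CPM in B16-F10 Ctrl against 82.8 and 96.2 CPM in YUMM2.1-EV, a difference of 1.7 (SE 0.11, adjusted p = 5.34e-07), while YUMM1.7-EV, at 92.1 and 87.1 CPM, did not differ (-0.01).

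Cdk6, a partner of the D cyclins, was at 103 and 91.3 CPM in B16-F10 Ctrl, 330.1 and 321 CPM in YUMM2.1-EV, with 117 and 119 CPM in YUMM1.7-EV. Its log2 fold change against YUMM2.1-EV was -1.77 in B16-F10 and -1.47 in YUMM1.7-EV (SE 0.09 for both). Cdkn1a, which encodes the p53 target p21, measured 278 and 307 CPM, 728 and 899 CPM, and 207 and 214 CPM in the same order, and was lower in both (log2 fold change -1.50 and -1.96; SE 0.12 for both; edgeR adjusted p = 3.23e-06 and 1.31e-06). Cdkn1b was higher in B16-F10 (0.91, SE 0.15, adjusted p = 0.000597) and did not pass in YUMM1.7-EV. Cdk2 appeared higher in B16-F10 Ctrl, at 263 and 251 CPM against 46.8 and 29.9 CPM (2.71, SE 0.20). Cdk2 overlaps Pmel on the opposite strand. Pmel was at 4129.6 and 4291 CPM in these B16-F10 libraries and at or near 0 elsewhere, and the strand of counting is not stated, so the reads of the 2 genes cannot be told apart.

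Counted by role, B16-F10 Ctrl against YUMM2.1-EV gave 30 called genes of 47 (63.8%), 11 higher and 19 lower. Of all genes tested 54.3% were called, 25% higher and 29.2% lower. All 5 called replication genes were higher, among them Cdt1 (0.95, SE 0.11), and all 6 called genes of the kinetochore, spindle and cytokinesis were lower, among them Anln (-0.97, SE 0.10), a scaffold of the contractile ring. Ube2c (-0.99) and Cdc20 (-0.98), which work with the anaphase-promoting complex, were lower, and Cdc25a was higher (1.26, SE 0.10, edgeR adjusted p = 3.63e-06). Mki67 did not pass the test (-0.18, SE 0.10, adjusted p = 0.143). In YUMM1.7-EV against YUMM2.1-EV 20 of the 47 (42.6%) were called, 1 higher and 19 lower, where 37.1% of all genes were called, 17.8% higher and 19.3% lower. They included 6 of 7 genes of the kinetochore, spindle and cytokinesis and 4 of 8 G1 cyclins and kinases. Rrm2 was lower by 0.99 (SE 0.09, adjusted p = 2.33e-05), E2f2 by 0.81, the spindle factor Tpx2 by 0.69, and Mki67 by 0.42 (SE 0.10, adjusted p = 0.00663), its only call in the 20 comparisons. Bub1b, a kinase of the spindle checkpoint, was higher by 0.43 (SE 0.14, adjusted p = 0.0395). Exchanging the labels of the second YUMM2.1-EV and the first YUMM2.1-WT library gave 33 called genes, and leaving out the first YUMM1.7-EV library gave 12.

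Related genes outside the 47 followed in 3 further lists. Of 44 genes of G2 and mitosis, 27 were lower and 5 higher in B16-F10 Ctrl and 17 were lower and 2 higher in YUMM1.7-EV, with Kif18b (-1.50 and -1.01) and Ckap2l (-1.07 and -0.95) lower in both. The lower genes were 61.4% and 38.6% of the list, beside 29.2% and 19.3% of all genes. These 2 comparisons share the YUMM2.1-EV libraries. Of 35 genes of replication and S phase, 6 were higher and 7 lower in B16-F10 Ctrl, which is 37.1% called and below the 54.3% of all genes. Of 24 regulators of the RB and p53 pathways, 21 were tested, and 7 were higher and 6 lower in B16-F10 Ctrl, a share (61.9%) near that of all genes. Among them were Myc (1.76, SE 0.60) and the RB relative Rbl2 (1.51, SE 0.13), which were higher, and the p53 targets Mdm2 (-1.29, SE 0.10) and Ccng1 (-1.23, SE 0.12), which were lower. In YUMM1.7-EV Mdm2 (-1.10) and Cdkn2d (-1.36), an inhibitor of Cdk4 and Cdk6, were lower. Cdkn2a was at 0 in every YUMM2.1, YUMM2.1KO and hairpin library, at 0.0908 to 0.713 CPM in YUMM1.7, and at 0.0959 to 1.24 CPM in B16-F10.

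YUMM2.1KO-EV and YUMM2.1-EV, which differ by the clone and its loss of Bmal1, had no called gene among the 47, where 1.75% of all genes were called by edgeR. At an unadjusted p under 0.05 there were 6, beside 2140 of all 15177 genes tested, and DESeq2 called 1. Cdkn1a was nearest, at 1233 and 1139.5 CPM against 728 and 899 CPM (0.54, SE 0.12, edgeR adjusted p = 0.052). Ccnd1 was at 0.14, Ccnd2 at -0.21, Ccnd3 at 0.27, Cdkn1b at -0.09 and Mki67 at -0.04. The count depended on the YUMM2.1-EV libraries, since it was 8 without the first and 5 without the second.

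**Figure D2:**
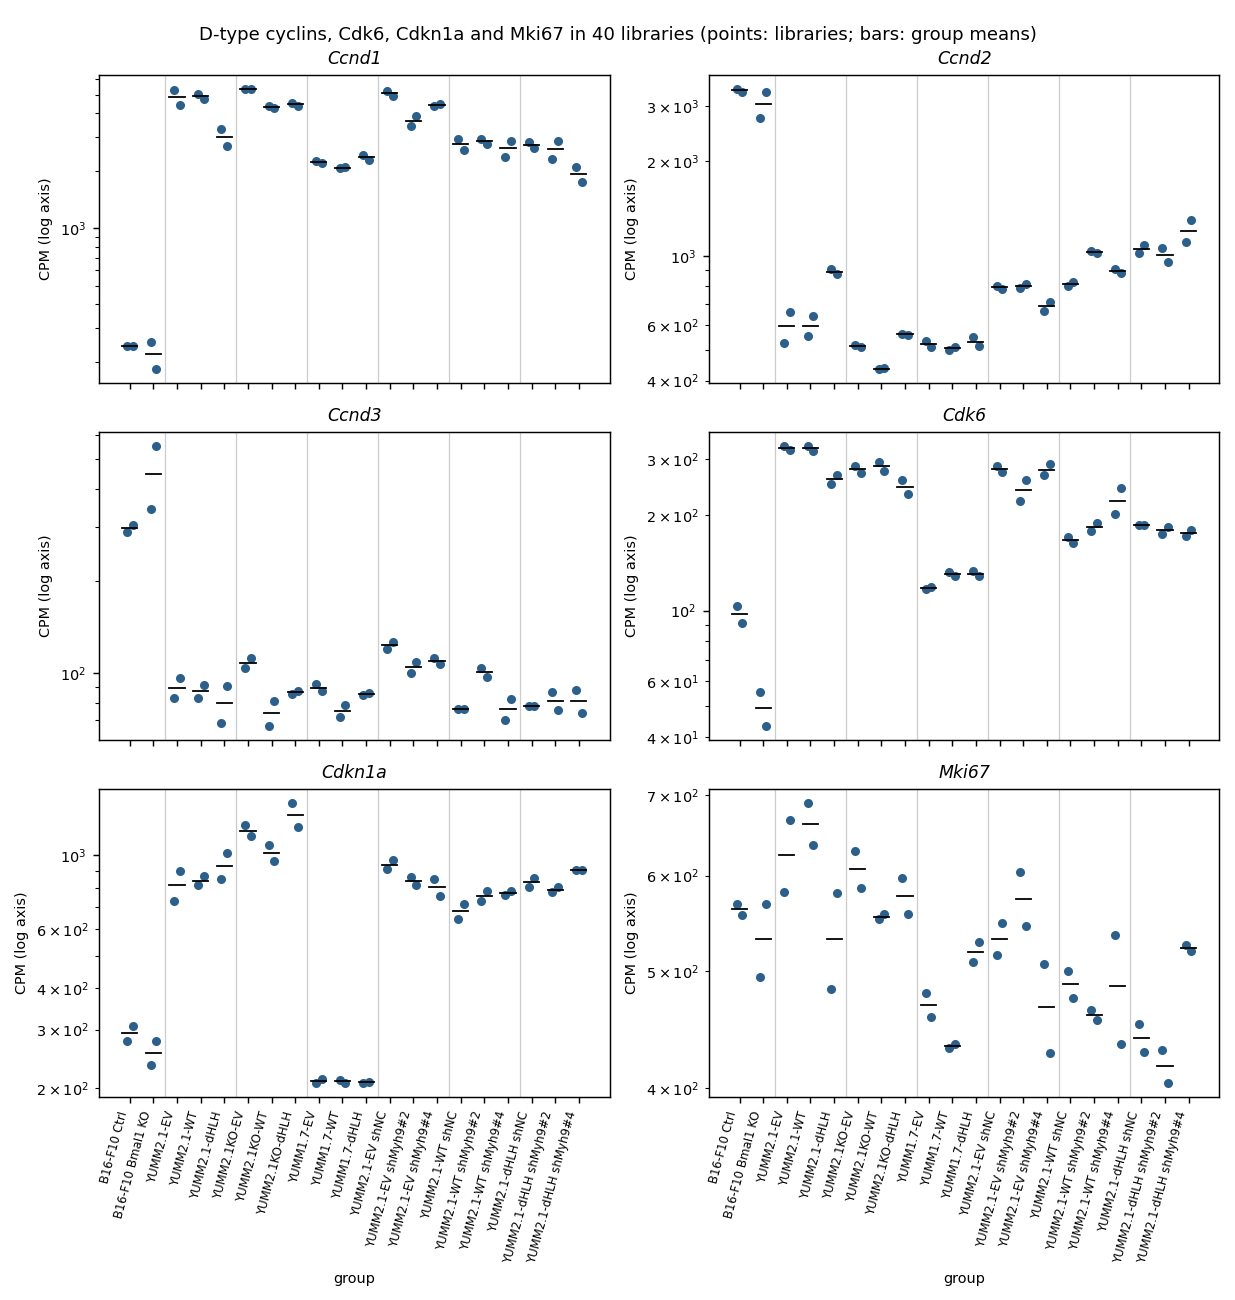
CPM (log axis) of Ccnd1, Ccnd2, Ccnd3, Cdk6, Cdkn1a and Mki67 in each of the 40 libraries (points) by group (horizontal axis), with bars at the group means. Ccnd1 separates the lines in the libraries without a hairpin and is lower in the WT and dHLH hairpin libraries than in those with EV, where it reaches down into the YUMM1.7 range, while the Mki67 points lie within 404 to 689 CPM.

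In the Bmal1-null clone, genes of the G1 to S step were lower with either Bmal1 construct than with EV. In YUMM2.1KO-WT against YUMM2.1KO-EV 20 of the 47 genes were called, all lower, where 11.2% of all genes were called, 4.92% higher and 6.28% lower. In YUMM2.1KO-dHLH against the same EV libraries 18 were called, all lower, where 10.9% of all genes were called, 4.79% higher and 6.09% lower. A fit of all 40 libraries together, which shares 1 estimate of the spread, called 7 and 4 of the 47, and a replicate block called 28 for dHLH. The median log2 fold change of the 47 was -0.27 and -0.31, beside 0.01 for all genes in both. The largest group was replication, with 8 of 11 genes lower with WT and 9 with dHLH.

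Mcm4 (ENSMUSG00000022673, chr16:15623897-15637400, - strand), a subunit of the replicative helicase, had 68 and 72.3 CPM with EV, 44.3 and 33.5 CPM with WT and 32.2 and 28.6 CPM with dHLH. EV lay above both constructs in every library, and Mcm4 fell by 0.85 with WT and by 1.22 with dHLH on the log2 scale (SE 0.13 for both, edgeR adjusted p = 0.000811 and 0.00013). Mcm2 went from 100.4 and 112 CPM with EV to 68.5 and 71.2 CPM with WT and 59.3 and 72.7 CPM with dHLH, which was -0.61 and -0.70 (SE 0.11 for both). Mcm6 (chr1:128331590-128359664, - strand), whose promoter with 2 TTGGCGC words is printed above, had 139 and 141 CPM with EV, 99.7 and 96.9 CPM with WT and 96.3 and 84.4 CPM with dHLH (-0.65, SE 0.09). Rrm2, which makes deoxyribonucleotides, had 109.9 and 116 CPM, 75.2 and 75.4 CPM, and 71.3 and 77.8 CPM in the same order. The 2 constructs overlapped for Mcm2 and Rrm2, and each lay below EV. Cdt1 (-0.46 with WT, and -0.66 with SE 0.11 with dHLH), Mcm3 and Mcm5 were called lower with both constructs, Mcm7 with WT, and Cdc6 and Pcna with dHLH.

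Upstream of replication, the E2F, Foxm1 and Mybl2 group had 4 of 4 genes lower with WT and 2 of 4 with dHLH. E2f2 had 36.2 and 35.4 CPM with EV, 22.3 and 17.6 CPM with WT (-0.85, SE 0.13, edgeR adjusted p = 0.000956) and 28.4 and 27.7 CPM with dHLH. Mybl2 had 71.7 and 72.3 CPM with EV, 41.3 and 46.6 CPM with WT (-0.72, SE 0.11) and 51.5 and 61.3 CPM with dHLH (-0.37). The WT libraries were lowest for both genes. Ccne1, the E-type cyclin that activates Cdk2, had 33.1 and 33.2 CPM with EV, 20.6 and 20.5 CPM with WT (-0.69, SE 0.13, adjusted p = 0.00329) and 23.8 and 28.8 CPM with dHLH, which did not pass. Cdc25a had 64.8 and 62.9 CPM, 45.9 and 37.9 CPM (-0.61, SE 0.12, adjusted p = 0.00522), and 60.5 and 49.6 CPM.

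Of the D cyclins, Ccnd1 had 5337 and 5378 CPM with EV, 4376 and 4273 CPM with WT (-0.31, SE 0.09, edgeR adjusted p = 0.0389) and 4544 and 4363 CPM with dHLH (-0.28, SE 0.09, adjusted p = 0.0606). Ccnd3 was lower with both (-0.54, adjusted p = 0.00354, and -0.33, adjusted p = 0.048; SE 0.10 for both). Ccnd2 differed from EV with neither, at -0.25 (adjusted p = 0.0686) with WT and 0.11 (adjusted p = 0.452) with dHLH. The inhibitors did not pass in either comparison: Cdkn1a was at -0.22 (adjusted p = 0.185) and 0.15 (adjusted p = 0.39), and Cdkn1b at 0.21 (adjusted p = 0.192) and 0.02 (adjusted p = 0.919).

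Fewer of the later genes were called. With WT, Ccna2 (-0.45), Ccnb1 and Cdk1 (-0.30 each) were lower and no gene of the checkpoint or kinetochore groups was called. With dHLH, Ccna2 had 59 and 67.9 CPM against 98.9 and 101 CPM with EV (-0.67, SE 0.10, edgeR adjusted p = 0.000894), and the Aurora kinase Aurkb had 11.9 and 14.3 CPM against 20.6 and 26.4 CPM (-0.86, SE 0.17, adjusted p = 0.00574). Cdk1, Bub1, Anln and Kif23 were also lower with dHLH. Mki67 had 629 and 586 CPM with EV, 552 and 557 CPM with WT (-0.13, SE 0.09, adjusted p = 0.366) and 597 and 558 CPM with dHLH (-0.09, SE 0.09, adjusted p = 0.576).

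Outside the 47 genes, 15 of 35 genes of replication and S phase were lower and none higher with each construct, 42.9% of the list beside 6.28% and 6.09% of all genes. They included the uracil glycosylase Ung (-0.62, SE 0.13) and the chromatin remodeler Hells (-0.55, SE 0.09) with WT, and the flap endonuclease Fen1 (-0.82, SE 0.15) and Orc6 (-0.70, SE 0.15) with dHLH. Of 44 genes of G2 and mitosis, 4 (9.09%) were lower with WT and 10 (22.7%) with dHLH, with Gtse1 lower by 0.68 (SE 0.15) and by 1.29 (SE 0.16). Tfdp1, the partner of E2F factors, was lower by 0.55 (SE 0.11) and by 0.80 (SE 0.12).

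These 2 comparisons share the EV libraries, so their likeness has no test here. Set directly against each other, YUMM2.1KO-WT and YUMM2.1KO-dHLH had no called gene among the 47 by edgeR, where 0.877% of all genes were called. There were 16 at an unadjusted p under 0.05, beside 1638 of all 13790 genes tested, and DESeq2 called 2. Nearest among the genes always reported were Ccnd2 (-0.35, SE 0.08, adjusted p = 0.0627) and Cdkn1a (-0.37, SE 0.10, adjusted p = 0.127), while Ccnd1 (-0.03), Ccnd3 (-0.21), Cdkn1b (0.19) and Mki67 (-0.05) lay nearer to 0. With 1 library left out the count against EV was 8 or 9 for WT. For dHLH it was 11 without the first EV library, 7 without the second, 17 without the first dHLH library and 27 without the second. For WT it was 8 without either EV library and 9 without either WT library. Arntl reads were lower with WT (18.2 and 17.5 CPM) than with EV (-0.83, SE 0.16), and whether reads of the constructs are counted is not known.

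**Figure D3:**
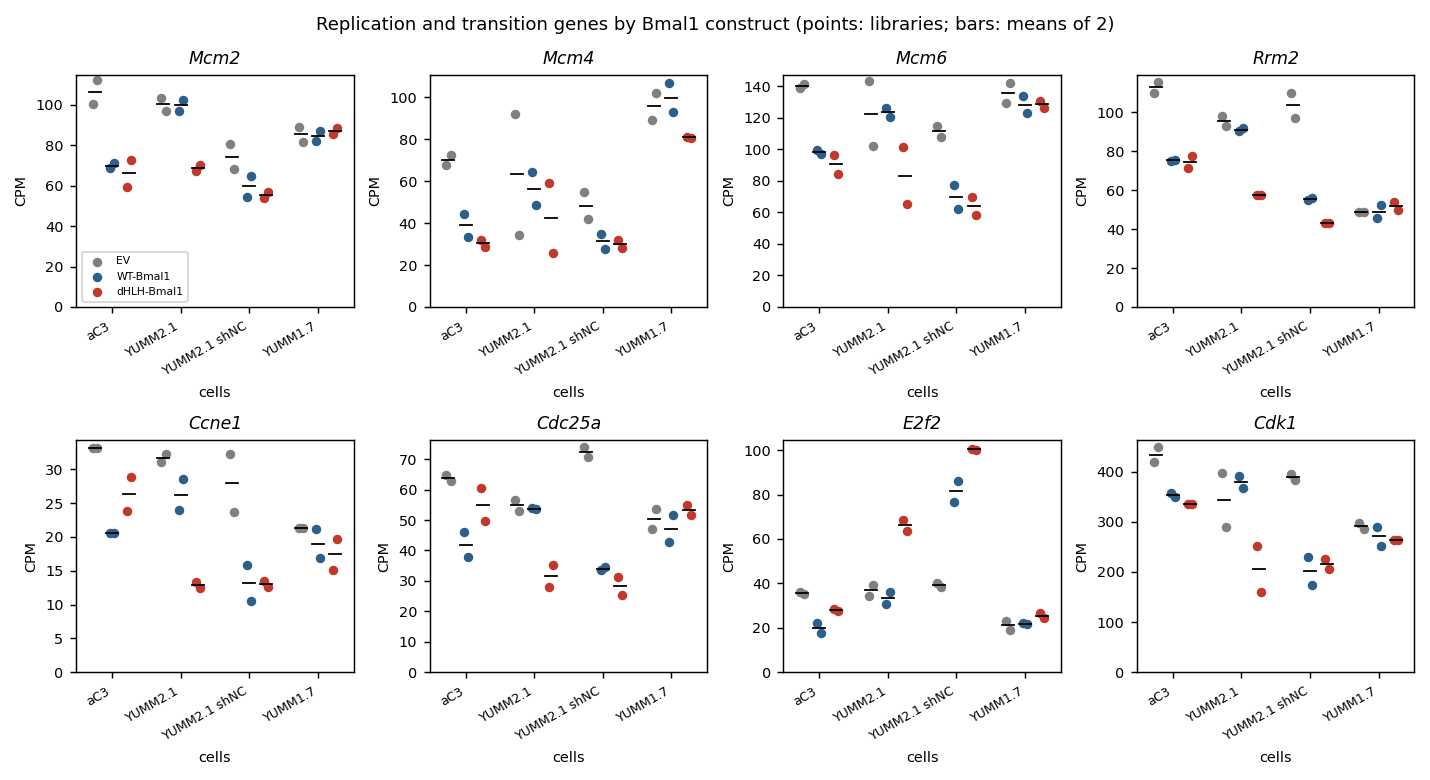
CPM (linear axes from 0) of Mcm2, Mcm4, Mcm6, Rrm2, Ccne1, Cdc25a, E2f2 and Cdk1 in EV, WT-Bmal1 and dHLH-Bmal1 libraries (points, with bars at the means of 2) of YUMM2.1KO (aC3), YUMM2.1, YUMM2.1 with shNC, and YUMM1.7. E2f2 is below EV with WT in YUMM2.1KO (22.3 and 17.6 against 36.2 and 35.4 CPM) and above EV in shNC cells (76.7 and 86.3 against 40.1 and 38.5 CPM).

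In YUMM2.1 cells with their own Bmal1, 6 of the 47 genes were lower with dHLH, E2f2 and Ccnd2 were higher, and none was called with WT. In YUMM2.1-dHLH against YUMM2.1-EV 8 of the 47 genes (17%) were called, 2 higher and 6 lower, where 13.2% of all genes were called, 6.51% higher and 6.72% lower. The share called was thus near that of all genes. With the replicate number as a block, which pairs the libraries of this experiment, 25 were called, 2 higher and 23 lower. The median of the 47 was -0.31, beside -0.01 for all genes.

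Ccne1 had 31.1 and 32.3 CPM with EV, 23.9 and 28.5 CPM with WT and 13.4 and 12.5 CPM with dHLH. It was lower with dHLH by 1.29 on the log2 scale (SE 0.17, edgeR adjusted p = 0.00586). Cdc25a had 56.7 and 53 CPM, 53.9 and 53.5 CPM, and 28 and 35.2 CPM in the same order (-0.79 with dHLH, SE 0.16, adjusted p = 0.0207). Both genes were lowest in the dHLH libraries, with no overlap with EV or WT. Rrm2 had 98 and 93.2 CPM with EV, 90.4 and 92 CPM with WT and 57.7 and 57.7 CPM with dHLH (-0.72, SE 0.12, adjusted p = 0.0106). Cdc6, which loads the helicase, fell by 0.70 (SE 0.15, adjusted p = 0.0245), and Mcm2 fell by 0.54 (SE 0.12, adjusted p = 0.0285). These were the 3 called genes of the replication group.

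Ccnd1 had 5299.9 and 4424 CPM with EV, 5066 and 4753 CPM with WT and 3307 and 2684 CPM with dHLH (-0.70, SE 0.15, edgeR adjusted p = 0.0282). Ccnd2 had 528 and 664 CPM, 556 and 642 CPM, and 905 and 873 CPM (0.58, SE 0.15, adjusted p = 0.0455). E2f2 had 34.5 and 39.4 CPM, 30.5 and 36.2 CPM, and 68.6 and 63.6 CPM (0.85, SE 0.15, adjusted p = 0.0152). In all 3 genes the dHLH libraries lay apart from the other 4. Ccnd3 (-0.16), Cdkn1a (0.20), Cdkn1b (0.01) and Mki67 (-0.23, SE 0.14, adjusted p = 0.35) did not pass.

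Mcm4 and Aurkb, named after their values were seen, varied more between replicates than between constructs. Mcm4 had 92.2 and 34.3 CPM with EV and 59.2 and 25.6 CPM with dHLH, and Aurkb had 35.9 and 14.6 CPM and 18.4 and 7.49 CPM. The first library was the higher one in both groups, and also in B16-F10 Bmal1 KO (133 and 28.7 CPM of Mcm4, 40 and 9.4 CPM of Aurkb). Cdk1 and Ccna2 had the same order in these groups. The part of this spread in the results was not tested.

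YUMM2.1-WT against YUMM2.1-EV had no called gene among the 47 by edgeR or DESeq2, and edgeR called none in the whole table (0% of 14323 genes). None of the 47 had an unadjusted p under 0.05, beside 98 of all genes tested. The counts do not show that the groups were alike, since the standard error was 0.15 for Ccnd1 and 0.14 for Mki67. On the log2 scale Ccnd1 and Ccnd2 were at 0.01, Ccnd3 at -0.04, Cdkn1a at 0.04, Cdkn1b at -0.02 and Mki67 at 0.08. Exchanging the labels of the second YUMM2.1-EV and the first YUMM2.1-WT library left this at 0 of the 47 and raised the dHLH count to 22, with 2 higher and 20 lower. Leaving out 1 library gave dHLH counts of 1 without the first EV library, 9 without the second, and 4 without either dHLH library.

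Of 35 further genes of replication and S phase 5 were lower with dHLH, among them Ung (-0.97, SE 0.16) and Uhrf1 (-0.78, SE 0.16), which is 14.3% beside 6.72% of all genes. Of 44 genes of G2 and mitosis 3 were lower, among them Ccnf (-0.79, SE 0.17), a share (6.82%) like that of all genes. The kinase Wee1, which holds Cdk1 inactive, was lower (-0.73, SE 0.14) and the stress gene Sesn2 higher (1.15, SE 0.20). Sox10, the melanocyte lineage factor, moved with dHLH in the same cells, from 501 and 484 CPM to 66.3 and 72.9 CPM (-2.82). Its part in the result was not tested.

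The difference between cells was itself tested. The dHLH effect in YUMM2.1 minus that in YUMM2.1KO passed for 2 of the 47 genes, where 12.2% of all genes passed. Ccne1 differed by -0.91 (SE 0.20, edgeR adjusted p = 0.0129) and E2f2 by 1.24 (SE 0.20, adjusted p = 0.00209). Ccnd1 (-0.38) and Ccnd2 (0.51, adjusted p = 0.0695) did not pass, nor did Mki67 (-0.11). The count was 5 without the first YUMM2.1-dHLH library, and 1 without the first YUMM2.1KO-EV or the second YUMM2.1KO-dHLH library. The dHLH effect in YUMM2.1 minus that in YUMM1.7 passed for 13 genes, 1 higher and 12 lower, where 9.89% of all genes passed. Among them, Ccne1 differed by -1.01, Cdc25a by -0.89, Rrm2 by -0.83 (SE 0.14, edgeR adjusted p = 0.00552), Ccnd1 by -0.79 (SE 0.16, adjusted p = 0.0117) and Cdc6 by -0.72, and Ccnd2, the higher one, by 0.55 (SE 0.15, adjusted p = 0.0487). Ccnd3 (-0.10), Cdkn1a (0.20), Cdkn1b (0.12) and Mki67 (-0.39, adjusted p = 0.131) did not pass. The tests share the YUMM2.1 libraries. The second count rested on the YUMM1.7 libraries too, being 2 without either YUMM1.7-EV library or the first YUMM1.7-dHLH library and 3 without the second, and 8 without the first YUMM2.1-EV library.

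YUMM1.7 cells showed no called gene among the 47 with either construct by edgeR, where 0.138% of all genes were called with WT (0.0434% higher and 0.0941% lower) and 0.63% with dHLH (0.21% higher and 0.42% lower). At an unadjusted p under 0.05 there were 7 with WT and 10 with dHLH, beside 1423 and 1428 of all 13816 genes tested. DESeq2 called 0 and 3. The log2 fold changes of the 47 ran from -0.24 to 0.23 with WT and from -0.28 to 0.27 with dHLH. Ccnd1 had 2254 and 2189 CPM with EV, 2060.5 and 2091 CPM with WT (-0.09, SE 0.04, edgeR adjusted p = 0.483) and 2427 and 2266 CPM with dHLH (0.08, SE 0.04, adjusted p = 0.491). Ccnd2 was at -0.04 and 0.03, Ccnd3 at -0.24 and -0.07, Cdkn1a at 0.01 and -0.01, Cdkn1b at -0.02 and -0.12, and Mki67 at -0.10 and 0.15. Rrm2 had 48.6 and 48.6 CPM with EV, 45.6 and 52.3 CPM with WT and 54.1 and 49.7 CPM with dHLH, so that WT spanned the EV values and dHLH lay just above them. Without the first YUMM1.7-WT library 1 gene was called with WT, and it was lower. Of the further lists, Gtse1 was lower with dHLH (-0.59, SE 0.12).

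In YUMM2.1 cells that also carried the scrambled hairpin, some genes of the G1 to S step were lower with both constructs and E2f2 was higher. With WT the licensing gene Cdt1 was higher too. These cells were fitted with all hairpin libraries and without a block, so their counts are not on 1 footing with those of YUMM2.1 above, and the difference was not tested. In WT shNC against EV shNC 16 of the 47 genes were called, 2 higher and 14 lower, where 22.3% of all genes were called, 11.7% higher and 10.6% lower. In dHLH shNC against EV shNC 23 were called, 3 higher and 20 lower, where 26.4% of all genes were called, 13.9% higher and 12.5% lower. The medians of the 47 were -0.28 and -0.37, beside 0.02 for all genes in both. The 2 comparisons share the EV shNC libraries.

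Rrm2 (chr12:24708241-24714146, + strand) had 109.9 and 97.4 CPM in EV shNC, 55.1 and 56 CPM in WT shNC and 43.3 and 43 CPM in dHLH shNC. Its log2 fold changes were -0.90 and -1.26 (SE 0.11 for both, edgeR adjusted p = 1.29e-05 and 1.51e-07). Cdc25a had 73.9 and 70.6 CPM, 33.5 and 34.6 CPM, and 31.3 and 25.3 CPM (-1.08 and -1.33, SE 0.14 for both). Ccnd1 had 5226 and 4936 CPM, 2913 and 2569 CPM, and 2811 and 2613 CPM (-0.89 and -0.90, SE 0.11 for both). In these genes both constructs lay below EV in every library, and for Ccnd1 the constructs overlapped each other. Ccne1 had 32.2 and 23.7 CPM, 15.9 and 10.5 CPM, and 13.5 and 12.7 CPM, a difference of -1.08 with each (SE 0.23, adjusted p = 0.00271 and 0.00198). Cdk6 had 284 and 273 CPM, 170.1 and 163 CPM, and 185 and 186 CPM, with -0.74 (SE 0.10, adjusted p = 6.37e-05) for WT, and was called lower with dHLH too. Ccnd3, at 119.8 and 126 CPM, 76.4 and 76.2 CPM, and 77.7 and 78.2 CPM, was lower by 0.68 and 0.65 (SE 0.11 for both).

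E2f2 rose with both constructs, from 40.1 and 38.5 CPM to 76.7 and 86.3 CPM with WT (1.06, SE 0.14, edgeR adjusted p = 2.26e-05) and to 100.5 and 100.1 CPM with dHLH (1.36, SE 0.14, adjusted p = 7.13e-07). Ccnd2 rose with dHLH, from 803 and 785 CPM to 1018 and 1079 CPM (0.41, SE 0.09, adjusted p = 0.00274), and was at 0.04 with WT. Cdt1, which licenses origins, was higher with WT (0.37, SE 0.12, adjusted p = 0.0363) and Ccnb2, a mitotic cyclin, with dHLH (0.44, SE 0.15, adjusted p = 0.0345). Cdkn1a had 909.7 and 967 CPM with EV and 645 and 715 CPM with WT (-0.46, SE 0.09, adjusted p = 0.00115), and did not pass with dHLH (-0.17, adjusted p = 0.182). Cdkn1b was at -0.06 and 0.26 and did not pass, nor did Mki67, at -0.12 (adjusted p = 0.469) with WT and -0.27 (SE 0.11, adjusted p = 0.0885) with dHLH.

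By role, 7 of 11 replication genes were lower with dHLH, among them Rrm2, Mcm6 (-0.78, SE 0.20, adjusted p = 0.00862), Mcm2, Mcm3, Mcm4, Cdc6 and Pcna, and 3 with WT, Rrm2, Mcm4 and Mcm6. Ccna2 had 80.9 and 63.3 CPM with EV, 49 and 43 CPM with WT and 49.1 and 38.3 CPM with dHLH (-0.70, SE 0.16, edgeR adjusted p = 0.00268). Cenpe and Cenpf at the kinetochore, Tpx2 and Ube2c were lower with both. In the further lists, 6 genes of replication and S phase (17.1%, beside 12.5% of all genes) were lower with dHLH, led by Ung (-1.37, SE 0.23), and 1 was higher, the thymidine kinase Tk1 (0.70, SE 0.12). With WT 4 were higher, among them Tk1 (0.82, SE 0.12) and Pole (0.85, SE 0.16), and 2 lower, Ung (-1.16, SE 0.23) and Uhrf1. Of all genes 11.7% were higher and 10.6% lower with WT, so this list was not mainly lower there. Of 44 genes of G2 and mitosis 6 (13.6%, beside 10.6% of all genes) were lower with WT and 8 (18.2%) with dHLH, Gtse1 in both, and Spc25 was higher in both. Sox10 was at 330.0 and 334 CPM in EV shNC, 98.7 and 99.9 CPM in WT shNC and 22.7 and 26.1 CPM in dHLH shNC. The endothelial marker Cdh5 went the other way, at 3.58 and 2.13 CPM in EV shNC, 12.9 and 11.8 CPM in WT shNC and 8.06 and 7.95 CPM in dHLH shNC, while Pecam1 did not pass (adjusted p = 0.299 and 0.592). The part of either marker in the result was not tested. Left-out libraries gave 7 to 15 called genes for WT, with 7 without the second WT shNC library and 10 without the first EV shNC library, and 14 to 17 for dHLH, with 14 without the first EV shNC library or the second dHLH shNC library.

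The shNC cells came from the same YUMM2.1 lines with EV, WT and dHLH, and YUMM2.1KO from a clone of YUMM2.1, so comparisons with no library in common are still not independent, and the overlap of their calls is only described. Of the genes lower with WT, 8 were called in both YUMM2.1KO and shNC cells, out of 20 and 14: Ccnd1, Ccnd3, Ccne1, Ccna2, Cdc25a, Mcm4, Mcm6 and Rrm2. That is 40% and 57.1% of the 2 lists, beside 40% and 22.4% over all genes. Of the genes lower with dHLH, 10 were shared between YUMM2.1KO and shNC cells, out of 18 and 20, or 55.6% and 50% beside 35.2% and 16.1% over all genes. All 6 genes lower with dHLH in YUMM2.1, namely Ccnd1, Ccne1, Cdc25a, Cdc6, Mcm2 and Rrm2, were among the 20 lower in shNC cells, beside 69.3% over all genes. Cdc6, Mcm2 and Rrm2 were lower in all 3, for which no share over all genes was taken. They were also the genes shared between YUMM2.1KO and YUMM2.1, 16.7% and 50% of the 2 lists, beside 4.9% and 4.29% over all genes. E2f2 and Ccnd2 were higher with dHLH in YUMM2.1 and in shNC cells, as were 76.6% of all genes higher in YUMM2.1. Neither was higher in YUMM2.1KO, where 9.14% of all genes higher in YUMM2.1 were.

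**Figure D4:**
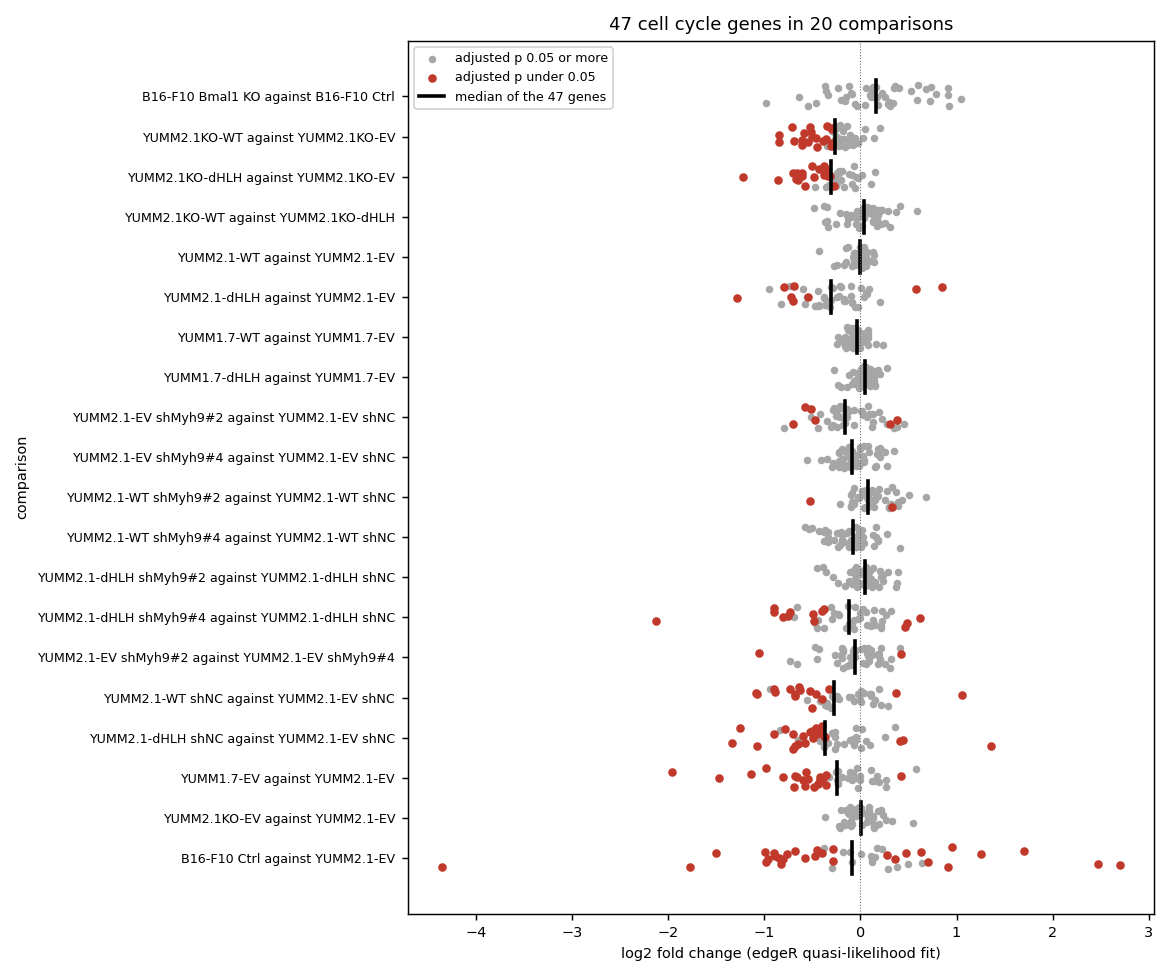
Log2 fold changes (horizontal axis) of the 47 genes (points) in each of 20 comparisons (vertical axis), red where the edgeR adjusted p was under 0.05, with a black bar at the median of the 47. The medians of the YUMM2.1KO, YUMM2.1-dHLH and shNC construct comparisons lie left of 0, between -0.27 and -0.37, and those of YUMM1.7 lie at -0.04 and 0.05.

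Against shNC the Myh9 hairpins gave at most 6 called genes among the 47, with 1 exception. A count of 0 here does not show that the groups were alike. Myh9 itself fell in every background: in EV cells it had 703 and 665 CPM with shNC, 229 and 248 CPM with shMyh9#2 (-1.51, SE 0.10, edgeR adjusted p = 4.94e-08) and 492 and 466 CPM with shMyh9#4 (-0.52, SE 0.09, adjusted p = 0.005). In WT cells the fold changes were -2.04 and -0.93 and in dHLH cells -1.69 and -0.42. Within a background both hairpins are compared with the same shNC libraries.

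In EV cells shMyh9#2 gave 6 called genes (12.8%), 2 higher and 4 lower, where 6.65% of all genes were called, 4.2% higher and 2.46% lower. Ccnd1 had 3403 and 3873 CPM against 5226 and 4936 CPM with shNC (-0.48, SE 0.11, edgeR adjusted p = 0.0163), with no overlap. Mcm4 (-0.71, SE 0.18), Ccna2 (-0.58, SE 0.16) and Cdc25a (-0.52, SE 0.14) were lower, and E2f1 (0.38, SE 0.11, adjusted p = 0.0447) and the topoisomerase Top2a (0.31, SE 0.09) were higher. Ccnd2 was at 0.01, Ccnd3 at -0.23, Cdkn1a at -0.16, Cdkn1b at -0.28 and Mki67 at 0.11, and none passed. Without the first shNC or the first shMyh9#2 library 0 genes were called, without the second shNC library 2 and without the second shMyh9#2 library 1. With shMyh9#4, which left more Myh9, edgeR called 0 of the 47 and DESeq2 0, where 1.71% of all genes were called (1.45% higher and 0.256% lower). An unadjusted p under 0.05 was reached by 7, beside 1539 of all 14848 genes tested. Ccnd1 had 4348 and 4455 CPM (-0.21, SE 0.11, adjusted p = 0.564), Ccnd2 was at -0.20, Ccnd3 at -0.17, Cdkn1a at -0.22, Cdkn1b at -0.10 and Mki67 at -0.19. Tested against each other, the hairpins differed in 2 of the 47 genes, where 0.492% of all genes were called, 0.242% higher and 0.249% lower. Mcm4, at 28.9 and 30.2 CPM with shMyh9#2 and 56.4 and 67.1 CPM with shMyh9#4, differed by -1.06 (SE 0.18, adjusted p = 0.0168), and Top2a by 0.43 (SE 0.09, adjusted p = 0.0427). Ccnd1 (-0.27), Ccnd2 (0.22), Ccnd3 (-0.06), Cdkn1a (0.07), Cdkn1b (-0.18) and Mki67 (0.30, adjusted p = 0.2) did not pass. The count was 0 without either shMyh9#2 library or without the second shMyh9#4 library.

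In WT cells shMyh9#2 gave 2 called genes, where 4.76% of all genes were called, 2.35% higher and 2.41% lower. E2f2 had 58.4 and 55.6 CPM against 76.7 and 86.3 CPM with shNC (-0.52, SE 0.13, edgeR adjusted p = 0.0284), and Ccnd2 had 1038 and 1022 CPM against 801 and 828 CPM (0.33, SE 0.09, adjusted p = 0.0436). Ccnd3 lay at 0.39 (SE 0.11, adjusted p = 0.0517), Ccnd1 at 0.05, Cdkn1a at 0.14, Cdkn1b at -0.22 and Mki67 at -0.09. The count was 1 without the first shNC library and 0 without any other single library. With shMyh9#4 edgeR called 0, where 0.236% of all genes were called (0.0876% higher and 0.148% lower), and DESeq2 called 3. An unadjusted p under 0.05 was reached by 11, beside 1794 of all 14848 genes tested. Ccnd1 was at -0.07, Ccnd2 at 0.14, Cdkn1a at 0.18 and Cdkn1b at 0.01, and Ccnd3 and Mki67 lay closer to 0. In dHLH cells shMyh9#2 gave 0 by edgeR and by DESeq2, where edgeR called 0.559% of all genes. An unadjusted p under 0.05 was reached by 6, beside 1515 of all 14848 genes tested. Ccnd1 was at -0.07, Ccnd2 at -0.06, Ccnd3 at 0.05, Cdkn1a at -0.08, Cdkn1b at -0.36 (adjusted p = 0.486) and Mki67 at -0.08.

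The exception was shMyh9#4 in dHLH cells, with 13 called genes (27.7%), 3 higher and 10 lower, where 15.1% of all genes were called, 6.28% higher and 8.86% lower. Cdk1 (ENSMUSG00000019942, chr10:69335146-69352938, - strand), the kinase that drives entry into mitosis, had 56.7 and 41.9 CPM against 227 and 207 CPM with shNC (-2.13, SE 0.37, edgeR adjusted p = 0.00181). The groups did not overlap. Ube2c had 107 and 99.8 CPM against 196 and 195 CPM (-0.90, SE 0.13, adjusted p = 0.000821), Bub1b 25.4 and 27.3 CPM against 53.7 and 45.8 CPM (-0.90, SE 0.27), and Cdk2 11.6 and 10.3 CPM against 20.1 and 18 CPM (-0.80, SE 0.25). Mcm6 (-0.76, SE 0.22), Cdkn1b (-0.74, SE 0.18, adjusted p = 0.011), Mcm2, Ccnd1 (-0.48, SE 0.11, adjusted p = 0.00981), Birc5 and Foxm1 were also lower. Mybl2 (0.62, SE 0.13, adjusted p = 0.0046), Mcm7 (0.49, SE 0.12) and E2f1 (0.46, SE 0.11) were higher. Ccnd2 (0.22), Ccnd3 (0.06), Cdkn1a (0.14) and Mki67 (0.27, SE 0.11, adjusted p = 0.114) did not pass. In the further lists Cks2 (-1.45, SE 0.15), which binds Cdk1, the replication gene Gins2 (-1.83, SE 0.30) and E2f4 (-2.49, SE 0.51) were lower.

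Depth moved with this comparison. The libraries of dHLH shMyh9#4 had totals of 3643332 and 6001340 counts, among the lowest of the series. In other groups with 1 shallow library, named after their values were seen, Cdk1 was also lower in it. WT shMyh9#4 had 79.5 CPM at a total of 5160989 and 230.0 CPM at 10308568, and dHLH shMyh9#2 had 135 CPM at 4918817 and 286 CPM at 14699820. The second dHLH shNC library, at 6347481 counts, had 207 CPM. CPM already divides by the total, and the part of depth in the result was not tested. The count of 13 became 4 without the first shNC library, 5 without the second, 14 without the first shMyh9#4 library and 1 without the second.

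**Figure D5:**
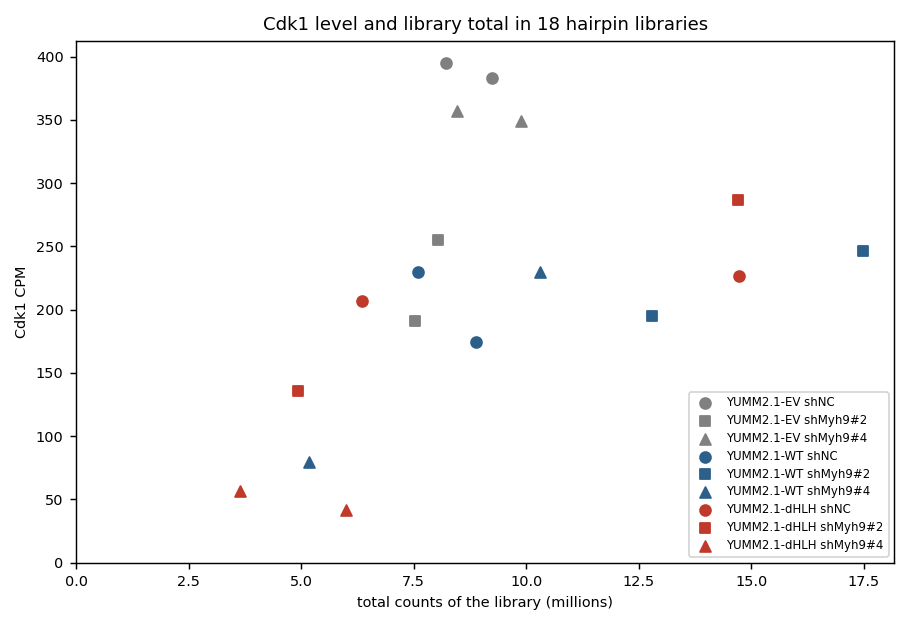
Cdk1 CPM (vertical axis, from 0) against the total counts of the library (horizontal axis) in the 18 hairpin libraries, with colors for EV, WT and dHLH and shapes for the 3 hairpins. The 4 lowest points are the 2 dHLH shMyh9#4 libraries, 1 WT shMyh9#4 library and 1 dHLH shMyh9#2 library, whose totals are 3643332 to 6001340 counts.

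In B16-F10, the libraries labelled Bmal1 KO against Ctrl gave no called gene among the 47 by edgeR, where 0.44% of all genes were called. At an unadjusted p under 0.05 there were 11, beside 1715 of all 14556 genes tested. DESeq2 called 5, 4 higher and 1 lower. The median of the 47 was 0.16, beside -0.01 for all genes. Cdc6 had 49.2 and 43.5 CPM in Ctrl and 72.5 and 102 CPM in the KO, and Mybl2 had 66 and 75.5 CPM and 93.1 and 174 CPM. Both genes were named after their values were seen, and neither was called (edgeR adjusted p = 0.232 and 0.372). Mcm4, at 103 and 101 CPM in Ctrl, had 133 CPM in the first KO library and 28.7 CPM in the second. Ccnd1 was at -0.16 (SE 0.21), Ccnd2 at -0.15 (SE 0.18), Ccnd3 at 0.59 (SE 0.26, edgeR adjusted p = 0.454), Cdkn1a at -0.20 (SE 0.18), Cdkn1b at -0.54 (SE 0.29) and Mki67 at -0.09 (SE 0.17). With standard errors of this size the count of 0 does not show that the groups were alike. Leaving out 1 KO library moved the count far from 0, and leaving out 1 Ctrl library did not. A fit without a KO library has 1 library in that arm, so its count is not read as a result about these genes.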

How the data were processed

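QuantSeq 3′ libraries of cultured mouse melanoma cells were sequenced as single 75 bp reads from 100 ng of RNA treated with DNaseI. The authors' alignment used bowtie2 and the mm10 genome, and RSEM with Ensembl transcripts gave the expected counts that were deposited, as whole numbers, for 51789 genes in 40 libraries, all used here. Their own tests used DESeq2. GENCODE M21 on GRCm38, the build of mm10, gave a symbol for 99.63% of the identifiers. The 47 genes and the further lists were chosen with earlier results of these data known.

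In R 4.3.3, the deposited counts were fitted with edgeR 4.0.16 (TMM scaling, filterByExpr with a minimum count of 10, quasi-likelihood F test) in 1 fit per experiment, with a Benjamini-Hochberg threshold of 0.05 over all genes tested. The fits were run first on simulated counts in which 200 genes changed. Recovery of those genes was lowest with the spread of B16-F10 and of YUMM2.1-WT against YUMM2.1-EV, where few were called, so a count of 0 in these comparisons says little. Genes changed by 1.5 times were also mostly missed with the spread of the hairpin cells and of the lines, so counts of 0 there are weak too. With the spread of YUMM2.1KO, YUMM2.1, B16-F10 and the lines, the share of calls on unchanged genes was above the threshold of 0.05. In each comparison up to 6 called genes a direction were named by fold change, and Mki67, the D cyclins, Cdkn1a and Cdkn1b always. Alternatives were DESeq2 1.42.0, its size factors, no filter, a replicate block, 1 fit of all libraries, 1 library left out, and exchanged labels of 2 libraries. Deviations of same-numbered YUMM2.1 libraries without a hairpin correlated at 0.181 to 0.393 over 3 pairs of groups, so these numbers were taken to pair the libraries; the mean was 0.0536 in YUMM2.1KO, 0.0905 in B16-F10, -0.00246 in YUMM1.7 and -0.00377 in the hairpin cells. One further engineered allele of the YUMM lines is not reported here.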

Additional observations from a re-analysis of the deposited data

Results flagged for a closer look

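The effect of dHLH-Bmal1 was tested for a difference between cells, and some of the 47 genes passed. Between YUMM2.1 and YUMM2.1KO, 2 of the 47 genes differed by edgeR's quasi-likelihood test, a smaller share than the 12.2% of all genes that did. They were Ccne1 by -0.91 and E2f2 by 1.24 on the log2 scale. E2f2 was higher with dHLH in YUMM2.1, at 68.6 and 63.6 CPM against 34.5 and 39.4 CPM with EV, and in YUMM2.1KO it was at 28.4 and 27.7 CPM against 36.2 and 35.4 CPM.

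Between YUMM2.1 and YUMM1.7, 13 of the 47 genes differed by the same test, where 9.89% of all genes did. The count was 2 or 3 without any 1 of the YUMM1.7-EV and YUMM1.7-dHLH libraries. At the G1 step these were Ccnd1 (-0.79), Ccnd2 (0.55), Cdk6 (-0.49) and Ccne1 (-1.01). Foxm1 (-0.53), the replication genes Mcm2 (-0.59), Cdc6 (-0.72) and Rrm2 (-0.83), and Cdc25a (-0.89) followed. Of the mitotic genes Ube2c (-0.68), the kinetochore proteins Cenpe (-0.50) and Cenpf (-0.43), and the cytokinesis motor Kif23 (-0.55) differed. No single gene of the 47 was called with dHLH within YUMM1.7, and the causes of these differences were not tested.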

How the results depend on the processing

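Of 213 counts of called genes under alternatives, 136 stayed within 1.5 times and 77 moved; of 1690 values of named genes 373 lost their call. None of the gene values changed sign, and the counts were not checked for a change of direction. The cause of the moves was not tested, and the counts below have no share of all genes beside them.

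With the replicate block, counts became 28 for YUMM2.1KO-dHLH, 25 for YUMM2.1-dHLH, 2 for YUMM2.1KO-WT against dHLH, 1 for B16-F10, 1 for shMyh9#2 in WT cells, and 4 for the dHLH effect in YUMM2.1 minus YUMM2.1KO; it moved no other count by over 1.5 times, and outside YUMM2.1 the numbers are shared only in name. DESeq2 gave 5 in B16-F10, 2 for YUMM2.1KO-WT against dHLH, 12 for YUMM2.1-dHLH, 3 for YUMM1.7-dHLH, 4 and 3 for shMyh9#2 and shMyh9#4 in WT cells, and 1 for YUMM2.1KO-EV against YUMM2.1-EV (1 also with its size factors). Without a filter there were 3 in B16-F10, 4 for YUMM2.1KO-WT against dHLH, 17 for YUMM2.1-dHLH, 2 for YUMM1.7-dHLH, 2 for shMyh9#4 in WT cells, 5 for shMyh9#2 against shMyh9#4 and 1 for YUMM2.1KO-EV against YUMM2.1-EV. A fit of all 40 libraries gave 15 in B16-F10, 7 and 4 for YUMM2.1KO-WT and dHLH, 18 for YUMM2.1-dHLH, 3 for shMyh9#2 in EV cells, 1 in WT cells, 0 between the hairpins, 1 for YUMM2.1KO-EV, and 4 for the first difference. Exchanged labels gave 22 for YUMM2.1-dHLH, 33 for YUMM1.7-EV, 8 for YUMM2.1KO-EV, and 6 and 21 for the 2 differences. With 1 library left out, counts were 0 to 33 in B16-F10, 8 to 9 for YUMM2.1KO-WT, 7 to 27 for YUMM2.1KO-dHLH, 0 to 5 between them, 1 to 9 for YUMM2.1-dHLH, 0 to 1 for YUMM1.7-WT, 0 to 2 for shMyh9#2 in EV cells, 0 to 1 in WT cells, 1 to 14 for shMyh9#4 in dHLH cells, 0 to 2 between the hairpins, 7 to 15 and 14 to 17 for WT and dHLH with shNC, 12 to 30 for YUMM1.7-EV, 0 to 8 for YUMM2.1KO-EV, and 1 to 5 and 2 to 15 for the 2 differences.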
